A study of Mus musculus with 5 samples.

Results

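Within each of 5 single-cell libraries of mouse embryonic stem cells, the 1000 barcodes with the highest share of UMIs from mitochondrially encoded genes were set against the 1000 with the lowest share. A UMI is a molecular tag that marks 1 captured RNA molecule, and the share is the sum over the 13 genes whose symbols start with mt- as a percentage of all UMIs of a barcode. Each library held 10000 barcodes, so the high-share and low-share classes together comprised 10000 of 50000 barcodes, with 5000 in each class. The members were chosen by the measured mitochondrial share, which is therefore given as a description only. All other values refer to nuclear-encoded genes, scaled to the nuclear-encoded UMIs of a class (nuclear CPM, UMIs of a gene per 1000000 nuclear-encoded UMIs), so that the mitochondrial UMIs themselves do not enter the total.

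The cells were REX-1 RFP, a mouse embryonic stem cell line that carries a red fluorescent protein behind the promoter of Rex1 (Zfp42), a gene of naive pluripotency. All cells were expanded in the presence of LIF (leukaemia inhibitory factor), which sustains self-renewal of mouse stem cells, before each culture went into its own condition for 72 h. The library NS kept LIF and the library ND had none; these 2 treatment codes are not spelled out in the labels. The other libraries kept LIF and received sorbitol, a sugar alcohol that makes the medium hyperosmotic, at 200, 250 or 300 mM. Each condition was a single library, so no difference between conditions has a replicate check, and barcodes are not replicates. No test was run and no p-value is given, and intervals cover counting error only.

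Mitochondria keep a small circular genome of their own. It encodes core subunits of respiratory complexes I, III and IV and of the ATP synthase, while the remaining subunits, the mitochondrial ribosome and the factors that copy and transcribe the mitochondrial genome are encoded in the nucleus and imported. Most of its messages carry short poly(A) tails, and they stay inside the organelle. In single-cell data a high mitochondrial share is commonly used to filter out damaged or dying cells, and it also varies between intact cells.

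The high-share barcodes of these libraries reached modest shares. The median share in the low-share and high-share classes was 2.51% and 5.78% in NS, 3.29% and 6.95% in ND, 3.91% and 7.51% at 200 mM sorbitol, 3.99% and 7.76% at 250 mM and 4.31% and 8.12% at 300 mM. The single highest barcode held 9.57% in NS, 10.3% in ND, 10.4% at 200 mM, 14.2% at 250 mM and 12.1% at 300 mM. The classes were cut from a continuous range. The last low-share barcode and the first barcode outside it both held 2.79% in NS, 3.63% in ND, 4.27% at 200 mM and 4.34% at 250 mM, and held 4.67% and 4.68% at 300 mM. At the upper limit, the values just outside and just inside were both 5.30% in NS, both 6.44% in ND, both 7.04% at 200 mM, both 7.29% at 250 mM and both 7.63% at 300 mM.

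The classes differed little in depth. Median UMIs per barcode in the low-share and high-share classes were 2139 and 2063.5 in NS, 815.5 and 809 in ND, 890 and 876 at 200 mM, 927 and 918 at 250 mM and 795.5 and 794.5 at 300 mM. At near-equal totals, the choice of classes itself leaves fewer nuclear UMIs per barcode in the high-share class, with a median of 1943 against 2086.5 in NS and 751 against 791 in ND. Nuclear genes detected were fewer too, with a median of 1061.5 against 1098 in NS, 522 against 544.5 in ND, 562 against 580 at 200 mM, 596 against 618 at 250 mM and 540 against 556 at 300 mM. Counting error makes up a larger part of the ranking outside NS, the deepest library. The SD of the share over all barcodes was 1.003 percentage points in NS, where counting alone gives 0.418, and 1.11 in ND, where counting gives 0.754. In the sorbitol libraries it was 1.09, 1.17 and 1.16 at 200, 250 and 300 mM, where counting gives 0.763, 0.753 and 0.835. Any 2 libraries shared between 34 and 54 barcode sequences.

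**Figure D1:**
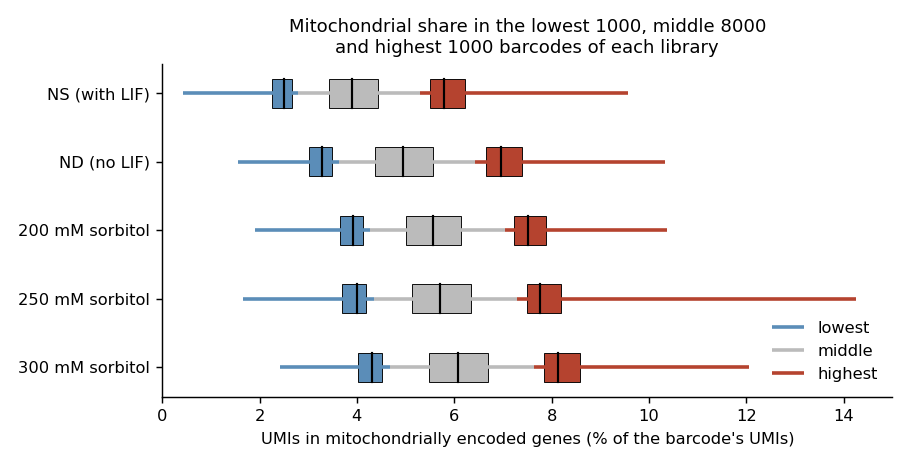
Share of UMIs from the 13 mitochondrially encoded genes (x axis, % of a barcode's UMIs) in the lowest 1000 (blue), middle 8000 (grey) and highest 1000 (red) barcodes of each library. Boxes span the quartiles, black lines are medians and horizontal lines run from the lowest to the highest barcode; the medians of the highest class lie between 5.78% in NS and 8.12% at 300 mM sorbitol.

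The labelled marker genes mt-Co1, mt-Co2 and mt-Co3, which encode the core subunits of cytochrome c oxidase, were part of the sum that chose the classes. Relative to nuclear-encoded UMIs, mt-Co1 went from 5771 to 14812 nuclear CPM between the low-share and high-share classes of NS, from 7525 to 17662 in ND, from 11193 to 22213 at 200 mM, from 9318 to 19293 at 250 mM and from 11293 to 22402 at 300 mM. Of the 13 genes, 12 were higher in the high-share class of all libraries by the rule given below for nuclear genes, and the median log2 ratio of the 13 was 1.09. As the 13 genes chose the classes, this outcome was largely fixed and is a description. The exception was mt-Nd6, which encodes a complex I subunit and is the only protein-coding gene on the light strand of the mitochondrial genome. It was also among the rarest of the 13, and rare genes add little to the share that ranked the barcodes. The other rare genes, mt-Atp8, mt-Nd5 and mt-Nd4l, had the next lowest median log2 ratios, at 0.68, 0.71 and 0.90. Whether strand or abundance goes with these ratios was not tested. The log2 ratio of mt-Nd6 was 0.39 in NS, 0.46 in ND, 0.79 at 200 mM and 0.09 at 300 mM, and the 2 classes at 250 mM differed by a fold of 0.998. Its share of all mitochondrial UMIs was 0.429% in the low-share and 0.222% in the high-share class of NS, and 0.443% and 0.206% at 250 mM. Among the other genes of complex I, mt-Nd3 had 3.24-fold and 2.88-fold more in the high-share class of NS and ND, and mt-Nd5 had 1.73-fold and 1.58-fold more.

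Nuclear-encoded genes of the same machinery had nearly equal levels in both classes. The 78 measured nuclear-encoded subunits of the respiratory chain and ATP synthase (35 of complex I, 25 of complexes II to IV with cytochrome c, and 18 of ATP synthase) included 0 that were higher and 0 that were lower in all libraries. A gene was counted as higher or lower when its log2 ratio (high-share over low-share nuclear CPM) lay on the same side of 0 in all 5 libraries and its median was at least 0.322 in size, among the 3230 nuclear-encoded genes with a mean of at least 50 nuclear CPM. By this rule 44 of all 3230 genes (1.36%) were higher and 68 (2.11%) were lower, 112 (3.47%) in all, and 596 (18.5%) lay on the same side in all libraries at any size. With cytosolic ribosomal protein genes also left out of the total, the level of every other gene rises and 4210 genes passed the minimum. Of these 4210, 87 were higher and 83 lower. The same side in 4 libraries is a looser demand than in 5. With 1 library left out, 44 were higher and 82 lower of 3305 genes without NS, and 58 and 77 of 3256 without ND. The counts were 71 and 118 of 3229 without 200 mM sorbitol, 59 and 88 of 3191 without 250 mM, and 81 and 107 of 3167 without 300 mM. The median log2 ratio of the 78 subunits was 0.04, with a range from -0.24 to 0.28, against 0.02 over all genes measured. Their summed level was 31294 nuclear CPM in the low-share and 33289 in the high-share class of NS. It was 27533 and 28202 in ND, 28841 and 29279 at 200 mM, 29217 and 31283 at 250 mM, and 29229 and 29891 at 300 mM. The levels of the high-share class were thus above those of the low-share class by a log2 ratio of 0.02 to 0.10. The summed mitochondrial messages had 1.04 to 1.35, but they chose the classes, so their ratio is no yardstick for these subunits.

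Single subunits stayed within a narrow band. Atp5g3, a c-subunit of the ATP synthase ring, had the highest median of them at 0.28, with library values of 0.33 in NS, 0.28 in ND, 0.13 at 200 mM, 0.36 at 250 mM and 0.07 at 300 mM. Ndufs7, an iron-sulfur subunit of complex I, had the lowest median at -0.24 and was at 0.30 at 200 mM. Medians of the 58 measured mitochondrial ribosomal proteins ran from -0.40 to 0.42 (median log2 0.02). Of these, 0 met the rule in either direction, where 3.47% of all 3230 genes did. At that share, few members of a list of this size would meet the rule. Of 33 import, chaperone and protease genes, 0 met it (median 0.08), as did 0 of 15 genes of the tricarboxylic acid cycle and pyruvate entry (median 0.04), 0 of 10 carriers and channels (median 0.05) and 0 of 79 cytosolic ribosomal protein genes (median 0.02). Glycolysis genes gave 0 of 17. In sums over barcodes, more cells with a message and more message per cell cannot be told apart.

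Factors that act on the mitochondrial genome were mostly too rare to measure. Of 32 listed, 9 reached the minimum, and 1 met the rule, in the downward direction. This was Hsd17b10, a mitochondrial dehydrogenase that is also a subunit of the RNase P that processes mitochondrial transfer RNAs. Hsd17b10 had 214 and 148 nuclear CPM in the low-share and high-share classes of NS, 171 and 135 in ND, 105 and 74.0 at 200 mM, 141 and 97.2 at 250 mM and 95.01 and 77.2 at 300 mM. Its level was lower in the high-share class of each library, and the counting interval of the log2 ratio reached 0 in ND (-0.72 to 0.03) and at 300 mM (-0.82 to 0.21). Tfam, which packages mitochondrial DNA and starts its transcription, had log2 ratios of -0.16 in NS, -0.43 in ND, 0.37 at 200 mM, -0.14 at 250 mM and 0.55 at 300 mM, each with an interval that included 0. Polrmt, the mitochondrial RNA polymerase, averaged 17.7 nuclear CPM, below the minimum. Lrpprc, which stabilises mitochondrial messages, had a median log2 ratio of 0.08.

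**Figure D2:**
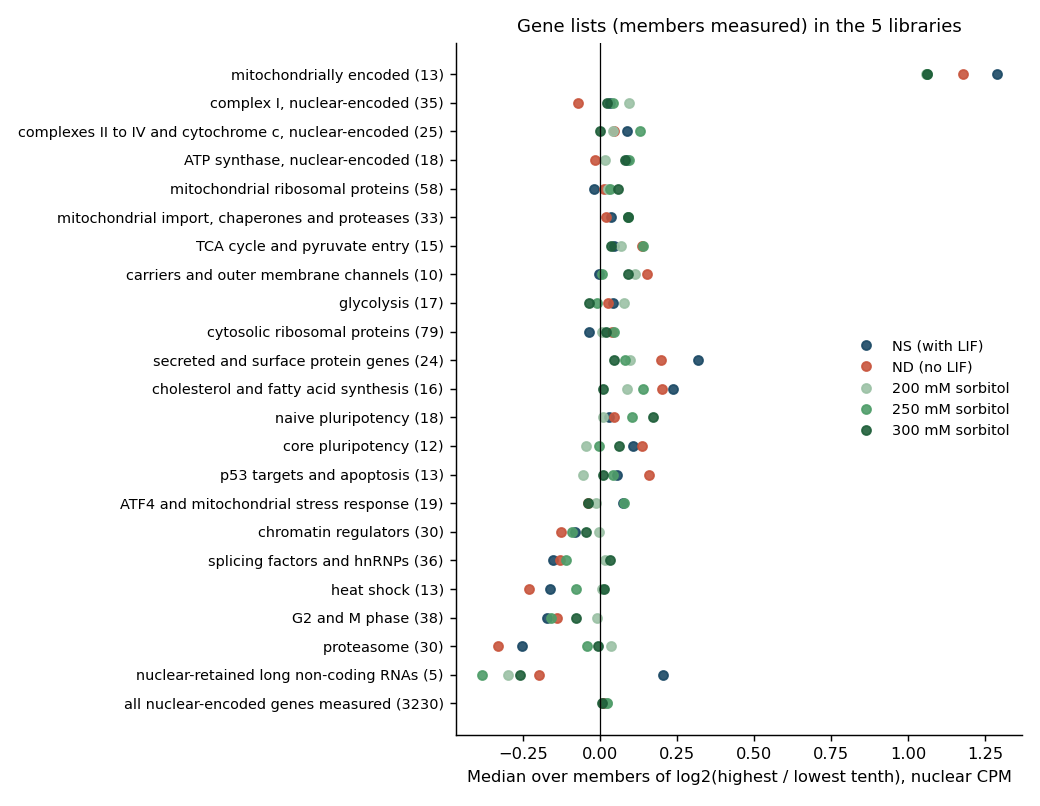
Median over list members of the log2 ratio of nuclear CPM between high-share and low-share barcodes (x axis), 1 point per library, with the number of measured members in brackets. Mitochondrially encoded genes, whose share chose the classes, lie between 1.06 and 1.29. The nuclear-encoded lists drawn from complex I to carriers and channels lie between -0.07 and 0.15. Not drawn are mitochondrial genome expression (9 measured) and regulators of mitochondrial biogenesis (3 measured), at -0.25 and -0.37 in ND.

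The naming rule took the 12 genes on each side whose ratio nearest 0 over the 5 libraries was farthest from it, so their ratios are what chose them and are a description. Pnn (pinin), a serine and arginine-rich protein of nuclear speckles, headed the lower group. It had 227 and 154 nuclear CPM in the low-share and high-share classes of NS, 198 and 136 in ND, 149 and 83.6 at 200 mM, 213 and 101 at 250 mM and 144 and 98.2 at 300 mM. The log2 ratio of Pnn lay between -1.09 at 250 mM and -0.54 in ND, with an interval below 0 in each library. Prpf38b, a pre-mRNA splicing factor, had 178 and 138 nuclear CPM in NS, 209 and 122 in ND, 173 and 134 at 200 mM, 184 and 127 at 250 mM and 177 and 136 at 300 mM. Its low-share level was above its high-share level in each library, and the intervals lay below 0 in all 5. Supt6, a histone chaperone that travels with RNA polymerase II, went from 236 to 174 nuclear CPM in NS, from 272 to 212 in ND, from 190 to 135 at 200 mM, from 265 to 191 at 250 mM and from 232 to 156 at 300 mM.

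Ncl (nucleolin), the main RNA-binding protein of the nucleolus, was the most abundant of the 12. It had 2434 and 1491 nuclear CPM in the low-share and high-share classes of NS, 3395 and 1898 in ND, 1784 and 1449 at 200 mM, 2230 and 1494 at 250 mM and 1838 and 1407 at 300 mM. Its log2 ratio was -0.71 in NS (interval -0.77 to -0.64), -0.84 in ND (-0.93 to -0.75), -0.30 at 200 mM (-0.41 to -0.19), -0.58 at 250 mM (-0.68 to -0.48) and -0.39 at 300 mM (-0.50 to -0.27). The interval in ND did not overlap those of the sorbitol libraries, and the intervals of NS and 250 mM overlapped. Nop14, a ribosome assembly factor of the small subunit, had ratios from -0.60 in NS to -0.30 in ND, and Tma16, a protein bound to assembling large subunits, from -0.63 at 300 mM to -0.29 in ND. Snrnp200, the helicase that opens the U4 and U6 snRNA pair in the spliceosome, had ratios from -0.48 to -0.35. The others were Rbbp6, an E3 ubiquitin ligase that also takes part in 3′ end processing, Zcchc8, a scaffold of the nuclear exosome, Rabep1, an effector of endosome fusion, and Yes1, a Src-family kinase; their medians lay between -0.56 and -0.36. The last of the 12 was Hsd17b10.

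Malat1, a long non-coding RNA kept in nuclear speckles, was the most abundant gene on the lower side, with a mean of 19146 nuclear CPM. It had 16290 and 14598 nuclear CPM in the low-share and high-share classes of NS, 16028 and 10459 in ND, 29162 and 20179 at 200 mM, 29796 and 18663 at 250 mM and 21094 and 15189 at 300 mM. The log2 ratio was -0.16 in NS (interval -0.18 to -0.14) and between -0.67 and -0.47 in the others, none of whose intervals reached that of NS. With all barcodes ranked by mitochondrial share and split into 10 bins of 1000, numbered from the lowest share, Malat1 in NS went from 16290 in bin 1 to 13610 in bin 9 and stood at 14598 in bin 10, while each other library had its lowest level in bin 10. Of the low-share barcodes, 17.1% in ND, 17.7% at 200 mM, 21.1% at 250 mM and 17.6% at 300 mM were among the 10% of barcodes richest in Malat1, and of the high-share barcodes 6.4%, 5.5%, 5.4% and 7.0% were. In NS both classes were above 10%, at 12.9% and 15.2%. Malat1 was 1 of 5 measured nuclear-retained non-coding RNAs and the only one of them to meet the rule, where 2.11% of all genes were lower. The median of the list over libraries was -0.23. By library it was 0.20 in NS, -0.20 in ND, -0.30 at 200 mM, -0.38 at 250 mM and -0.26 at 300 mM, so NS had the opposite sign.

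On the higher side, Srebf2, the transcription factor that switches on cholesterol synthesis, came first. It had 164 and 237 nuclear CPM in the low-share and high-share classes of NS, 148 and 235 in ND, 188 and 234 at 200 mM, 153 and 208 at 250 mM and 144 and 182 at 300 mM. The high-share level was above the low-share level in each library, and the interval of the log2 ratio included 0 only at 300 mM (-0.03 to 0.70). Slc44a1, a choline transporter, had 37.0 and 45.3 nuclear CPM in NS, 34.2 and 59.7 in ND, 66.6 and 81.2 at 200 mM, 55.2 and 81.2 at 250 mM and 82.3 and 126 at 300 mM. Galnt1, a Golgi enzyme that starts O-linked glycosylation, had a median log2 ratio of 0.49, Rbfox2, a splicing regulator, 0.48, and Dtl, a substrate receptor of a DNA replication-coupled ubiquitin ligase, 0.46. The other 7 did not reach the median ratio the rule asks for: Ulk1 (a kinase that starts autophagy), Lasp1 (an actin-binding protein), Ebpl, Gps1 (a COP9 signalosome subunit), Samd4b, Fgd1 (an exchange factor for Cdc42) and Fbxw2 (an F-box protein), with medians from 0.24 to 0.321, the last just under the limit.

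**Figure D3:**
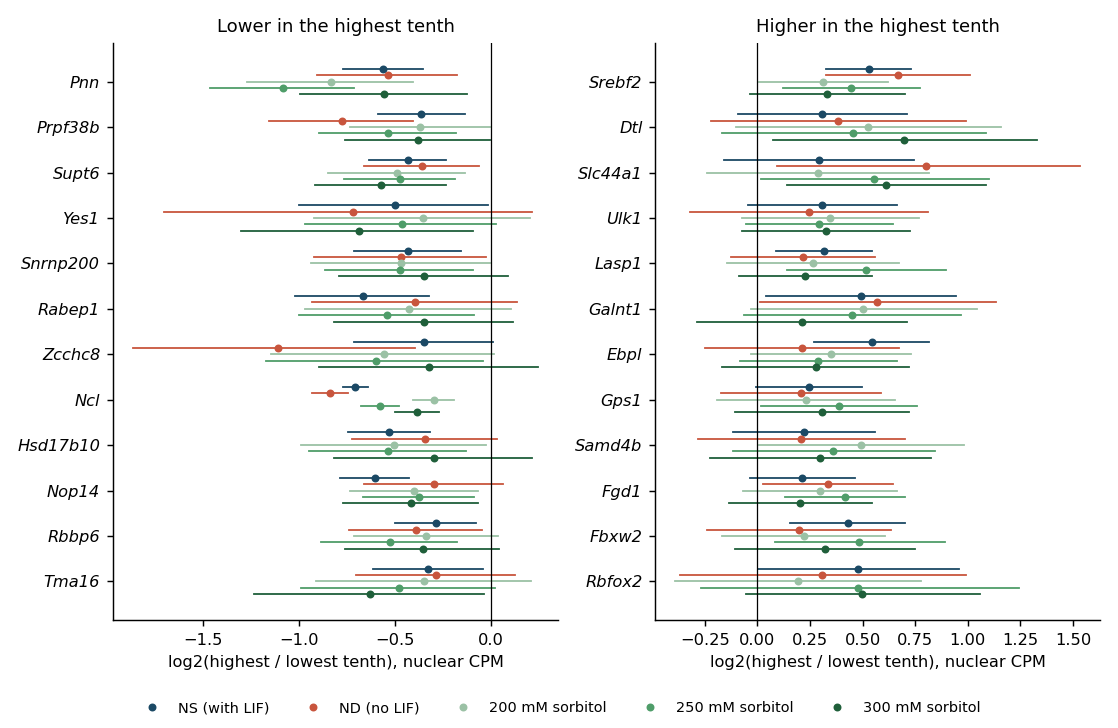
Log2 ratio of nuclear CPM between high-share and low-share barcodes (x axis, points) with exact 95% counting intervals (lines) for the 12 genes named on each side, coloured by library. All points lie below 0 for the lower genes (left) and over 0 for the higher genes (right), which the naming rule requires; Ncl has the narrowest intervals.

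The most A-rich coding stretch of the 2 genes heading each side is shown, because base composition, described further below, differed between the 2 groups. Dtl goes against that difference, with 27.8% A over its whole coding sequence. Each is a window of 90 coding bases of the longest annotated reading frame (GENCODE M21 on GRCm38, the mm10 build), written 5′ to 3′ on the strand of the gene, with A in capitals. Srebf2 lies at chr15:82175208-82175297 on the plus strand (37 A of 90), Dtl at chr1:191561440-191561529 on the minus strand (42 A), Pnn at chr12:59072716-59072805 on the plus strand (44 A) and Prpf38b at chr3:108904266-108904355 on the minus strand (49 A).
Srebf2, higher: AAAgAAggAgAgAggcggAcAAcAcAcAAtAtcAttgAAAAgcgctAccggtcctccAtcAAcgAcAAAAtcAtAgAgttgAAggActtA
Dtl, higher: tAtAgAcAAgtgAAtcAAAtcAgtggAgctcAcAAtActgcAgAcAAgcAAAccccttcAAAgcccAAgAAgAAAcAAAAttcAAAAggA
Pnn, lower: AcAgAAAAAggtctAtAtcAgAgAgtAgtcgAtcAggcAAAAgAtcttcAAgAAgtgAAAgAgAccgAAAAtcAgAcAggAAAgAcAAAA
Prpf38b, lower: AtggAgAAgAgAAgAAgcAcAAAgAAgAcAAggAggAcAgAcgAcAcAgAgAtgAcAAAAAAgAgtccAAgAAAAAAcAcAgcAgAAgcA

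Barcodes outside both classes, ranked by the same mitochondrial share, were also set against each other. In bins 8 and 9 of the ranking against bins 2 and 3, 65 of the 68 lower genes again had a median log2 ratio below 0, where 48.3% of all 3230 genes did, and their median was -0.19. Below 0 in all 5 libraries were 30 of the 68, against 6.53% of all genes. Of the 44 higher genes, 35 had a median above 0, where 51.7% of all genes did, and their median was 0.11. Above 0 in all 5 libraries were 11 of the 44, against 7.06% of all genes. These barcodes were ranked by the same share and come from the same 5 libraries, so the counts are a description only. They are not a replicate of any condition. Pnn had a median of -0.27 in them, Ncl -0.28, Malat1 -0.31 and Prpf38b -0.26, whereas Srebf2 had 0.08 and Dtl 0.04. Single genes can differ from the group here, as Yes1 did with 0.038 and, on the higher side, Rbfox2 with -0.068 and Nid2 with -0.016.

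**Figure D4:**
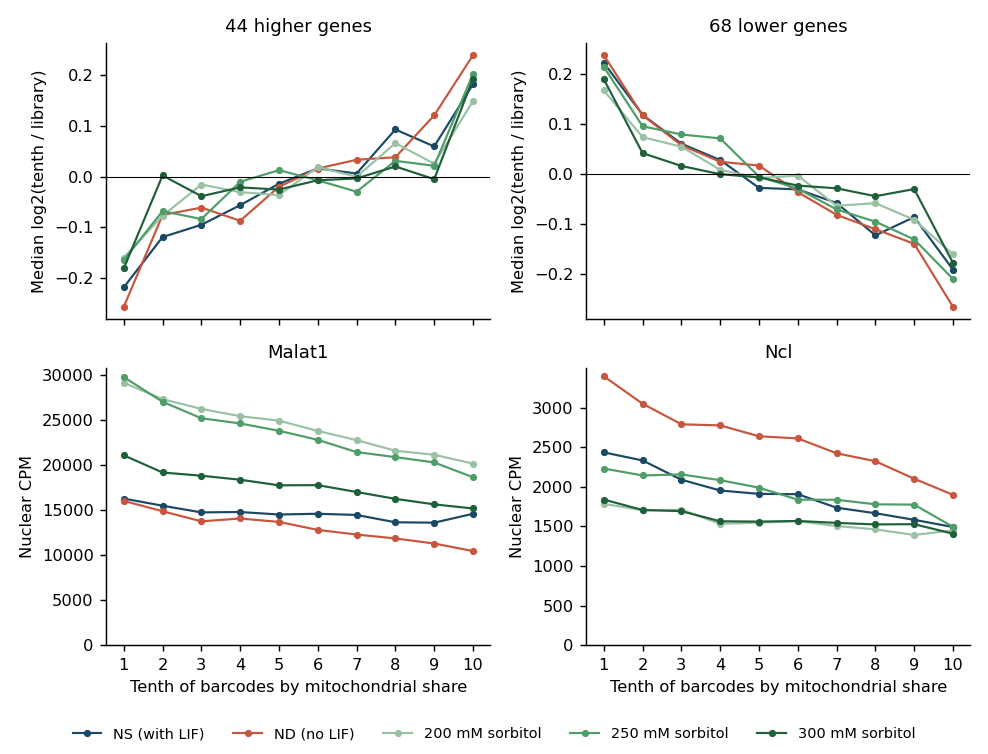
Levels in 10 equal bins of barcodes ranked by mitochondrial share (x axis, from lowest to highest) in each library. Upper panels give the median over the 44 higher and the 68 lower genes of the log2 ratio of a bin to its whole library, lower panels the nuclear CPM of Malat1 and Ncl; Malat1 in ND goes from 16028 to 10459 and Ncl in ND from 3395 to 1898.

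The lower genes had more A in their coding sequence than the higher genes. Coding sequences were available for 3192 of the 3230 genes, 67 of the 68 lower and 41 of the 44 higher ones. Coding A content had a median of 31.1% in the lower genes and 23.6% in the higher genes, against 27.0% over all 3192. Above the median of all genes were 60 of the 67 lower genes and 10 of the 41 higher genes. When all genes were split into 5 equal groups by coding A, the groups from lowest to highest A held 17, 11, 6, 4 and 3 of the higher genes and 1, 2, 10, 20 and 34 of the lower genes. In the group with least A, 2.66% were higher and 0.156% lower, and in the group with most A, 0.470% were higher and 5.33% lower. Ncl, with 35.7% A, and Pnn, with 34.6%, belong to the A-rich end, and Srebf2, with 21.1%, to the other. Dtl, a higher gene with 27.8%, lies above the median of all genes.

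The shift by composition was small per gene. The median log2 ratio in the groups with least and most coding A was 0.13 and -0.10 in NS, 0.13 and -0.14 in ND, 0.05 and -0.03 at 200 mM, 0.09 and -0.09 at 250 mM and 0.03 and -0.03 at 300 mM. All 5 libraries had the same order. In the barcodes the rule did not use, the corresponding medians were 0.07 and -0.07 in NS, 0.05 and -0.07 in ND, 0.03 and -0.02 at 200 mM, 0.05 and -0.04 at 250 mM and 0.01 and -0.02 at 300 mM. Across the 3192 genes, Spearman's rho between coding A and the log2 ratio was -0.34 in NS, -0.32 in ND, -0.15 at 200 mM, -0.27 at 250 mM and -0.10 at 300 mM. With each barcode thinned at random to 700 UMIs, it was -0.24 in NS, -0.29 in ND, -0.13 at 200 mM, -0.23 at 250 mM and -0.08 at 300 mM. The order of NS and ND thus changed with depth. Genes of 1 library share its depth and are not independent, so no p is given. Coding C gave the opposite sign (rho 0.31 with the median ratio over libraries), G -0.0027 and T 0.07, and coding length -0.13. Whether base composition, the function of these genes or their RNA processing goes with the mitochondrial share was not tested.

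**Figure D5:**
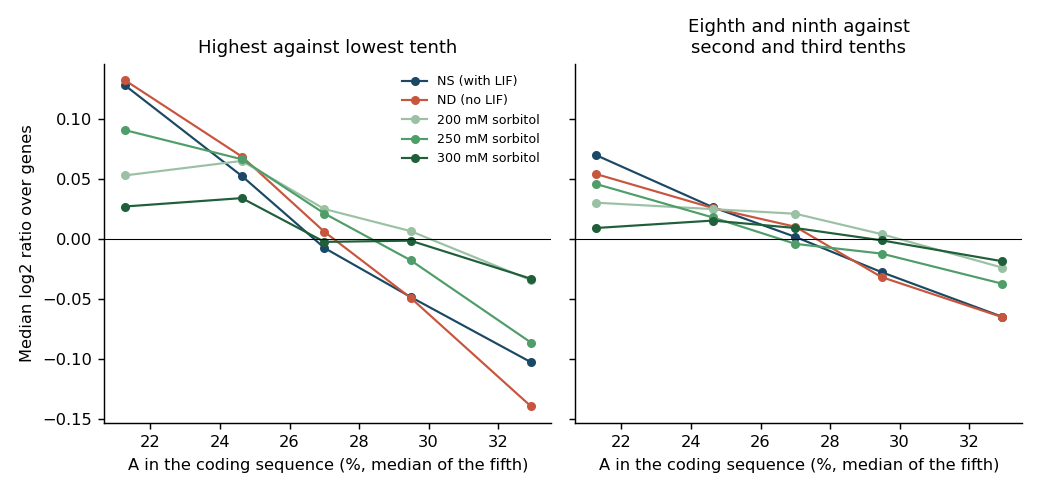
Median log2 ratio over genes (y axis) in 5 equal groups of the 3192 genes by A content of the coding sequence (x axis, median % of each group), 1 line per library, for the high-share against the low-share class (left) and for bins 8 and 9 against 2 and 3 of the same ranking, which lie outside both classes (right). On the left the group with most A lies below 0 in each library, from -0.14 in ND to -0.03 at 200 and 300 mM.

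The counts and medians of other lists are read against those of all 3230 genes, of which 1.36% were higher and 2.11% lower, with a median log2 ratio of 0.02. Where 1 or 2 members of a list met the rule, they are named as a description. Of 40 nuclear-encoded lists, 36 had measured members, and 21 of those had no member on either side. Genes of G2 and M phase had a median of -0.12, with 0 of 38 higher and 2 lower, Kif20b (a mitotic kinesin, -0.50) and Cenpf (a kinetochore protein, -0.39). Among the 10% of barcodes richest in G2 and M phase UMIs were 14.6% of low-share and 9.6% of high-share barcodes in NS, 12.5% and 9.4% in ND, 11.7% and 10.5% at 200 mM, 14.5% and 9.4% at 250 mM and 11.3% and 10.8% at 300 mM. Proteasome genes had a median of -0.14 with 1 of 30 lower, Psmd6, a lid subunit. Their medians differed between libraries, from -0.33 in ND and -0.25 in NS to -0.04 at 250 mM, -0.01 at 300 mM and 0.04 at 200 mM. Splicing factors and hnRNPs had a median of -0.07 with 1 of 36 lower (Hnrnpa3), and chromatin regulators -0.06 with 1 of 30 lower (Smc3, a cohesin subunit). Translation factors had 1 of 24 lower (Eif3a, a scaffold of the initiation factor that binds the small ribosomal subunit).

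Secreted and surface protein genes had a median of 0.16, against 0.02 over all genes, with 2 of 24 higher, where 1.36% of all genes were: Nid2, a basement membrane protein (0.37), and Psap, a lysosomal precursor protein (0.33). Cholesterol and fatty acid synthesis genes had a median of 0.14, with Srebf2 as the 1 of 16 that was higher. Msmo1 and Sqle, enzymes of sterol synthesis, both had a median of 0.28 but lay on both sides of 0 over the libraries. Sec61a1, the pore of the endoplasmic reticulum translocon, was 1 of 22 chaperone and translocon genes to be higher (0.33).

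Lists tied to damage or stress held 2 members that met the rule, beside 1.36% higher and 2.11% lower over all genes. Of 13 measured p53 targets and apoptosis genes, 1 was higher (Zmat3, an RNA-binding p53 target, 0.37) and 0 were lower. Bax, which opens the outer mitochondrial membrane, had a median of -0.14 and Cdkn1a, the cell cycle inhibitor p21, -0.10. Of 19 genes of the ATF4 and mitochondrial stress response, 1 was lower, Ddit3 (the stress transcription factor CHOP), with -0.39 in NS, -0.72 in ND, -0.59 at 200 mM, -0.28 at 250 mM and -0.29 at 300 mM. Heat shock genes gave 0 of 13 on either side (median -0.08) and antioxidant genes 0 of 19 (median 0.02). A p53, stress or death programme at levels below the minimum could not be seen at this depth.

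Zfp42, whose promoter drives the reporter, had 569 and 552 nuclear CPM in the low-share and high-share classes of NS, 503 and 530 in ND, 538 and 547 at 200 mM, 762 and 817 at 250 mM and 906 and 934 at 300 mM, and the interval of its log2 ratio included 0 in each. Of 18 measured naive pluripotency genes 1 was higher, Tdh (threonine dehydrogenase, a mitochondrial enzyme abundant in mouse stem cells, 0.35), and of 12 core pluripotency genes 0 met the rule. Pou5f1, Nanog and Sox2 had medians of -0.11, 0.12 and 0.09, and the summed core pluripotency genes had log2 ratios from 0.02 to 0.05.

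Summed markers of other states differed between the classes in some libraries and not in the same direction. The 19 primitive endoderm markers, led by Sparc, summed to 308 and 420 nuclear CPM in the low-share and high-share classes of NS, 224 and 249 in ND, 561 and 537 at 200 mM, 677 and 734 at 250 mM and 759 and 664 at 300 mM. The sum was higher in the high-share class of NS (log2 0.45, interval 0.30 to 0.60), lower at 300 mM (-0.19, -0.37 to -0.02), and its interval included 0 in the others. The 19 formative and primed epiblast markers, of which 3 reached the minimum, had 521 and 629 in NS (0.27, 0.15 to 0.39), with intervals that included 0 elsewhere. Etv5 was the largest of them in NS, with 466 and 573 UMIs in the low-share and high-share classes. The members did not move together, as Tcf15 went from 93 to 60 UMIs and Dnmt3a from 47 to 31. The cleavage-stage-like markers, which are rare and mostly near-identical gene copies, summed to 73.6 and 53.8 in NS, 19.6 and 20.8 in ND, 128 and 168 at 200 mM, 129 and 92.6 at 250 mM and 98.8 and 57.6 at 300 mM. Their log2 ratio was below 0 beyond counting error in NS (-0.45), at 250 mM (-0.48) and at 300 mM (-0.78), and above it at 200 mM (0.40). Their part in the results for other genes was not tested.

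The 14 fibroblast markers summed to 14.3 to 41.8 nuclear CPM in the low-share and 22.9 to 37.0 in the high-share classes, with Col3a1 and Postn at 0 throughout. The 10 haematopoietic markers summed to 25.7 to 39.3 and 24.9 to 55.3, nearly all of it Laptm5, with Lyz2, Hbb-bs and Hbb-bt at 0. The fibroblast sums had intervals that included 0 in each library, and the haematopoietic sum was higher only in NS (log2 0.49, 0.07 to 0.92). Summed mesoderm and neuroectoderm markers went from 155 to 104 at 250 mM (-0.57, -0.97 to -0.19), and from 178 to 152 at 200 mM with an interval that included 0, as did those of NS, ND and 300 mM. At 250 mM Hand1 went from 57 to 36 UMIs and Eomes from 31 to 18, and both genes are also on the trophoblast list. Trophoblast markers went from 344 to 294 in NS (-0.23, -0.39 to -0.07) and had intervals that included 0 in the other libraries. The members did not move together in NS, where Krt19 went from 230 to 147 UMIs and Krt18 from 97 to 60, while Tfap2c went from 87 to 110.

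Within single libraries, genes of at least 50 nuclear CPM in that library were counted at 1.5-fold. In NS 37 (1.26% of 2945) were higher and 34 (1.15%) lower, and in ND 85 (2.70% of 3145) were higher and 101 (3.21%) lower. At 200 mM sorbitol 42 (1.29% of 3263) were higher and 37 (1.13%) lower, at 250 mM 56 (1.67% of 3345) on each side, and at 300 mM 51 (1.46% of 3490) higher and 48 (1.38%) lower. With a minimum of 100 nuclear CPM they were 13 and 12 in NS, 14 and 32 in ND, 0 and 5 at 200 mM, 4 and 11 at 250 mM and 5 and 3 at 300 mM.

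Ranking by the interval bound nearest 0 favours abundant genes, whose counting intervals are narrow. It gave the 3 genes named on each side of a library. In NS these were H19, Scd2 (a stearoyl-CoA desaturase) and Olfr655 (annotated as an olfactory receptor) on the higher side and Ncl, Hist1h2ae (a replication-dependent histone, with near-identical copies that counting may not separate) and Psmc6 (a proteasome ATPase) on the lower. H19, an imprinted long non-coding RNA, had 110 and 227 nuclear CPM in the low-share and high-share classes of NS and 154 and 217 in ND. In the sorbitol libraries its level was several times higher and the order was the other way, with 1122 and 917 at 200 mM, 1039 and 900 at 250 mM and 1231 and 1001 at 300 mM. Scd2 had 201 and 368 nuclear CPM in NS, a log2 ratio of 0.87, while the ratios of the other libraries lay between 0.08 and 0.28. Psmc6 was lower in each library, from -0.82 in NS to -0.23 at 200 mM.

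In ND the higher genes were Psat1 (an enzyme of serine synthesis, 362 and 552 nuclear CPM), Mfge8 (a secreted glycoprotein, 128 and 216) and Gsk3b (a kinase that destabilises beta-catenin, 73.4 and 132), and the lower ones Ncl, Malat1 and Hist1h1b, a linker histone (159 and 84.4). At 200 mM they were Snrpf, H2afz and Cnbp on the higher side and Malat1, Chmp2a and Pnn on the lower. At 250 mM they were Golga3, Stt3a and Fam114a2 against Pnn, Malat1 and Ncl. At 300 mM they were Slc3a2 (a chain of amino acid transporters, 132 and 205), Cnn3 and Rnf7 against Tpm1 (tropomyosin, 190 and 106), Malat1 and Anp32a. Of the genes named on the higher side, none recurred between libraries. On the lower side Malat1 recurred in 4 and Ncl in 3, and Pnn was named at 200 and 250 mM. Golga3, a Golgi structural protein, was the 1 higher gene of this group that also met the rule over all libraries, with 281 and 409 nuclear CPM in NS, 401 and 600 in ND, 720 and 744 at 200 mM, 732 and 1017 at 250 mM and 590 and 781 at 300 mM.

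The pattern over genes was more alike in some libraries than in others. Spearman's rho between the log2 ratios of 2 libraries over the 3230 genes was 0.45 for NS and ND, 0.32 for NS and 250 mM and 0.29 for ND and 250 mM. The other 7 pairs lay between 0.11 and 0.19. These values are across genes within libraries of unequal depth, and the libraries share no samples.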

How the data were processed

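Single-cell RNA was measured in 5 libraries of 1 mouse embryonic stem cell line, 1 per condition. The authors deposited matrices of unnormalised UMI counts for genes by barcodes, and the file headers name Cell Ranger 6.0.1; the submitters' processing notes also name Seurat 4.1.1, R 4.1.2 and mm10. How reads were aligned and annotated, whether strand was used and how barcodes were picked is not given in the sources used here. Overlapping and antisense genes and near-identical copies are therefore uncertain. The labels describe lysis in Trizol and a Lexogen kit, but the matrices hold droplet barcodes; which steps apply was not settled.

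Barcodes of each library were ranked by the share of UMIs in mt- genes, ties in file order, and the highest and lowest 10% formed the classes; no other filter was set. Libraries held 8404105 to 22158653 UMIs, and classes 764112 to 2161355 nuclear UMIs. UMIs were summed over a class and scaled to nuclear CPM. Log2 ratios have exact conditional binomial 95% intervals, with counts under 3 set to 3. No doublet caller was run; leaving out the 5% of barcodes with most UMIs was an alternative.

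The rules for calls and named genes are stated beside the values; in addition, up to 4 members per list with the largest absolute median ratio and 10 chosen genes could be named, and mt-, cytosolic ribosomal protein genes and unnamed models were left out of the ranked names. A member singled out because a count was 5 or fewer was chosen after its values were seen. Members, lists and alternatives were chosen with earlier results of these data known, and counts and medians of lists are read against those of all genes. Base composition was chosen after the values were seen, from the longest complete reading frame per gene in GENCODE M21. Scripts used Python 3.11.15, numpy 2.4.6, scipy 1.17.1, pandas 2.3.3 and matplotlib 3.10.9. The ratios, intervals and calls within a library were run on simulated counts. The simulation did not cover the choice of classes, the spread between barcodes or the rule over all libraries.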

Additional observations from a re-analysis of the deposited data

Results flagged for a closer look

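In 5 genes the log2 ratio between high-share and low-share barcodes pointed in opposite directions in 2 libraries, with both counting intervals away from 0; the differences between libraries were not tested. H19 had 1.04 in NS and -0.30 at 300 mM sorbitol. Ddit4, a stress-induced inhibitor of mTORC1 signalling, had 0.29 in ND and -0.49 at 300 mM. Tfap2c, a trophoblast and germ cell transcription factor, had 0.44 in NS and -0.56 at 200 mM. Col4a1, a basement membrane collagen, had 0.62 in NS and -0.54 at 200 mM. Kcnq1ot1, an imprinted long non-coding RNA, had 0.15 in NS and -0.38 at 250 mM. All 185 genes named by the rules were searched, and how far counting error alone gives such pairs was not tested.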

How the results depend on the processing

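Of the 22 alternatives, 3 were chosen after the values were seen. Among named genes that met the rule over all libraries, the median ratio changed sign in bins 8 and 9 against bins 2 and 3 for Yes1 (0.038), Nid2 (-0.016) and Rbfox2 (-0.068), and in no other setting run on them; the cause was not tested. List medians also changed sign, in up to 9 lists per setting, each with a main median of at most 0.19 in size. Counts moved most, and the cause was not tested. The median ratios of the genes with most and least coding A kept their sign in each of the settings run on them. Leaving out a library was a weak check, because each library had these signs, and the other settings draw on the same libraries. These kept signs are a description only. Pairs of values below are genes higher and genes lower. With classes of 5% the counts were 112 and 99 in NS, 201 and 232 in ND, 172 and 127 at 200 mM, 146 and 167 at 250 mM and 174 and 142 at 300 mM, with 77 higher over all libraries. With classes of 20% they were 7 and 10, 14 and 35, 6 and 8, 11 and 15, and 7 and 3 in the same order, and 11 and 33 over all libraries. A minimum of 20 nuclear CPM gave 229 and 102, 442 and 338, 320 and 239, 367 and 279, and 356 and 298, and 151 and 121 over all libraries. A minimum of 100 gave 13 and 12, 14 and 32, 0 and 5, 4 and 11, and 5 and 3, and 10 and 31 over all. At 2-fold the libraries gave 1 and 1, 3 and 7, 0 and 0, 0 and 3, and 1 and 1, and at 1.5-fold over all libraries 0 were higher and 4 lower (Syf2, Bccip, Rpap3 and Ppil4, named after their values were seen). Without ribosomal protein genes in the total, more genes passed the minimum (4210 against 3230), and there were 80 and 58 in NS, 182 higher in ND, 105 and 66 at 200 mM, 131 higher at 250 mM, 104 and 100 at 300 mM and 87 higher over all.

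Classes chosen by mt-Co1, mt-Co2 and mt-Co3 alone gave 34 higher at 250 mM and 22 higher over all libraries, 8 of them shared with the 44. Classes chosen by the other mt- genes gave 19 lower in NS, 36 lower at 250 mM and 27 lower over all libraries, 16 of them shared with the 68. Thinned to 700 UMIs per barcode, there were 107 and 75 in NS, 73 higher at 200 mM, 76 lower at 300 mM and 29 higher over all, and 8 of the 44 and 28 of the 68 genes met the rule again. In bins 8 and 9 of the ranking against bins 2 and 3, 2 and 4 met it, and there were 0 and 0 in NS, 6 and 10 in ND, 6 and 2 at 200 mM, 4 and 5 at 250 mM and 2 and 6 at 300 mM. Leaving out 1 library at a time, which makes the same-side demand looser, gave 44 to 81 higher and 77 to 118 lower genes. In each setting that used the ends of the ranking, 43 or 44 of the 44 higher genes and all 68 lower genes kept the sign of their median (the exceptions, named after their values were seen, were Lefty1, Guk1 and Lefty2). Leaving out a library cannot change these signs, because called genes lie on 1 side in all libraries. Moving a minimum or a fold leaves the ratios as they are. The other settings draw on the same libraries, so the kept signs are a description only. Of the other values, 3127 of 3330 for single genes and 684 of 719 for list medians moved by no more than the SD over the libraries. That SD spans different conditions and is a wide yardstick. The totals pool settings that can move a value little: with 1 library left out, all 185 named genes stayed within it. In bins 8 and 9 against bins 2 and 3, 110 of the 185 genes and 33 of 36 list medians did. No paired analysis was possible because no test was run and the conditions have 1 library each; the 2 classes were set against each other within each library throughout. Median UMIs of 794.5 to 2139 per barcode limit genes under 50 nuclear CPM and the precision of the ranking itself.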
